A study of Mus musculus with 8 samples.

Results

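Solute carriers (Slc genes) are membrane proteins that move a substrate across a membrane, and 22 transcripts from 16 of their loci stood in the transcript table of this study of mouse hippocampus. Members were taken by name: 16 transcripts carried a symbol of the form Slc, family number, letter and member number, and 6 merged transcript models without a symbol shared a locus with one of these. The whole table holds 1679 transcripts of 1404 loci. GENCODE M21 names 361 genes in this way, with 1898 annotated transcripts, so most solute carrier genes have no transcript in the table and are not analysed here. Hippocampus was taken from C57BL/6 mice at 8 weeks of age. The groups were 4 libraries from wild-type controls and 4 from mice with a knockout of Jade2, a PHD-finger partner of the histone acetyltransferase HBO1. The labels do not say how the allele was made, in which cells the gene is lost, or whether each library came from a separate animal, so p-values measure only the spread between these samples, which may be technical.

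Many solute carriers are driven by the sodium, proton or chloride gradients that ATP-using pumps maintain, while others exchange one solute for another or let it pass down its own gradient. In brain they clear transmitters from the synapse, fill synaptic vesicles, bring glucose, amino acids and creatine into neurons and glia, set intracellular pH, and carry metabolites into mitochondria, lysosomes and the Golgi. One gene usually gives several transcripts, which can differ in their first exon, and so in the untranslated leader, while encoding the same protein.

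The table is a selected one. In the authors' deposited table no unadjusted p exceeds 0.0498 and no log2 fold change is smaller in size than 1.00, limits met by 1.60% of the 104721 transcripts implied by its adjusted p-values. Every member therefore had to differ between the groups, and neither a member's difference nor its direction is independent evidence. Values are abundances in FPKM (fragments scaled to transcript length and library size), a unit taken from the quantification tool because the table names none. Counts are not given, so the depth behind each value is unknown. Library medians over all listed transcripts were between 0.773 and 0.900 FPKM. For the targeted gene, the annotated Jade2 transcript ENSMUST00000109091 was listed at 0 in all 4 knockouts and at 2.66, 2.66, 1.41 and 5.05 FPKM in controls 1 to 4. The listed transcripts of the Jade2 locus together summed to 8.07 to 19.5 FPKM in the knockouts and 4.45 to 16.01 FPKM in the controls. Of the merged Jade2 models, MERGE.3721.8 was at 0, 0, 0 and 0.00225 FPKM in knockouts 1 to 4 and at 11.8, 1.79, 7.76 and 10.96 FPKM in the controls, while 3 others had values only in the knockouts. In tissue RNA, fewer cells of a type and less RNA per cell cannot be told apart.

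Of the 22 solute carrier transcripts 14 had higher and 8 had lower values in the knockout, beside 48.5% higher among all listed transcripts. In size the log2 fold changes of the authors' deposited table had a median of 2.72 over the members and 2.69 over the whole list. The authors' deposited table gives 0.893% of its transcripts, and none of the 22 members, an adjusted p under 0.05. The smallest among the members in the authors' deposited table was 0.141, for a merged model of Slc20a1, and the other 21 stood at 0.888. The 8 libraries were then compared again with limma on log2(FPKM + 0.5), for the 14 members whose mean reached 1 FPKM, as 50.6% of listed transcripts did. None passed an adjusted p of 0.05 (Benjamini-Hochberg over 104721 transcripts, background 0.00% of 849 listed transcripts), and 10 of 14 had an unadjusted limma p under 0.05, beside 70.6% of the 849. The other 8 had means under 1 FPKM and were not tested. The adjusted limma p was 1 for 13 of the 14 tested members, and differences are therefore given below without a p, as knockout minus control on the log2(FPKM + 0.5) scale with their standard error. With no filter on abundance 0 of 22 members passed in limma after adjustment, beside 7 of all 1679 listed transcripts. At that setting 18 members had an unadjusted limma p under 0.05, with no share of the whole list computed to set beside them.

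A simpler reading of the same values is whether the 4 knockouts lay wholly above or below the 4 controls. This held for 4 of 22 members, against 36.1% of all listed transcripts, of which 19.7% had higher and 16.4% lower knockout values. The 4 were Slc16a9 ENSMUST00000046807 and Slc22a4 ENSMUST00000154369, with higher knockout values, and Slc46a3 ENSMUST00000031655 and Slc20a1 MERGE.14340.4, with lower ones. In the other 18 at least 1 library of one group reached into the range of the other. A value of 0 in at least 1 library occurred in 8 of 22 members, beside 41.2% of the list, and 1 member was at 0 in all 4 knockouts, beside 1.07%. In all 22 the direction on the log2(FPKM + 0.5) scale was that of the fold change in the authors' deposited table.

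**Figure D1:**
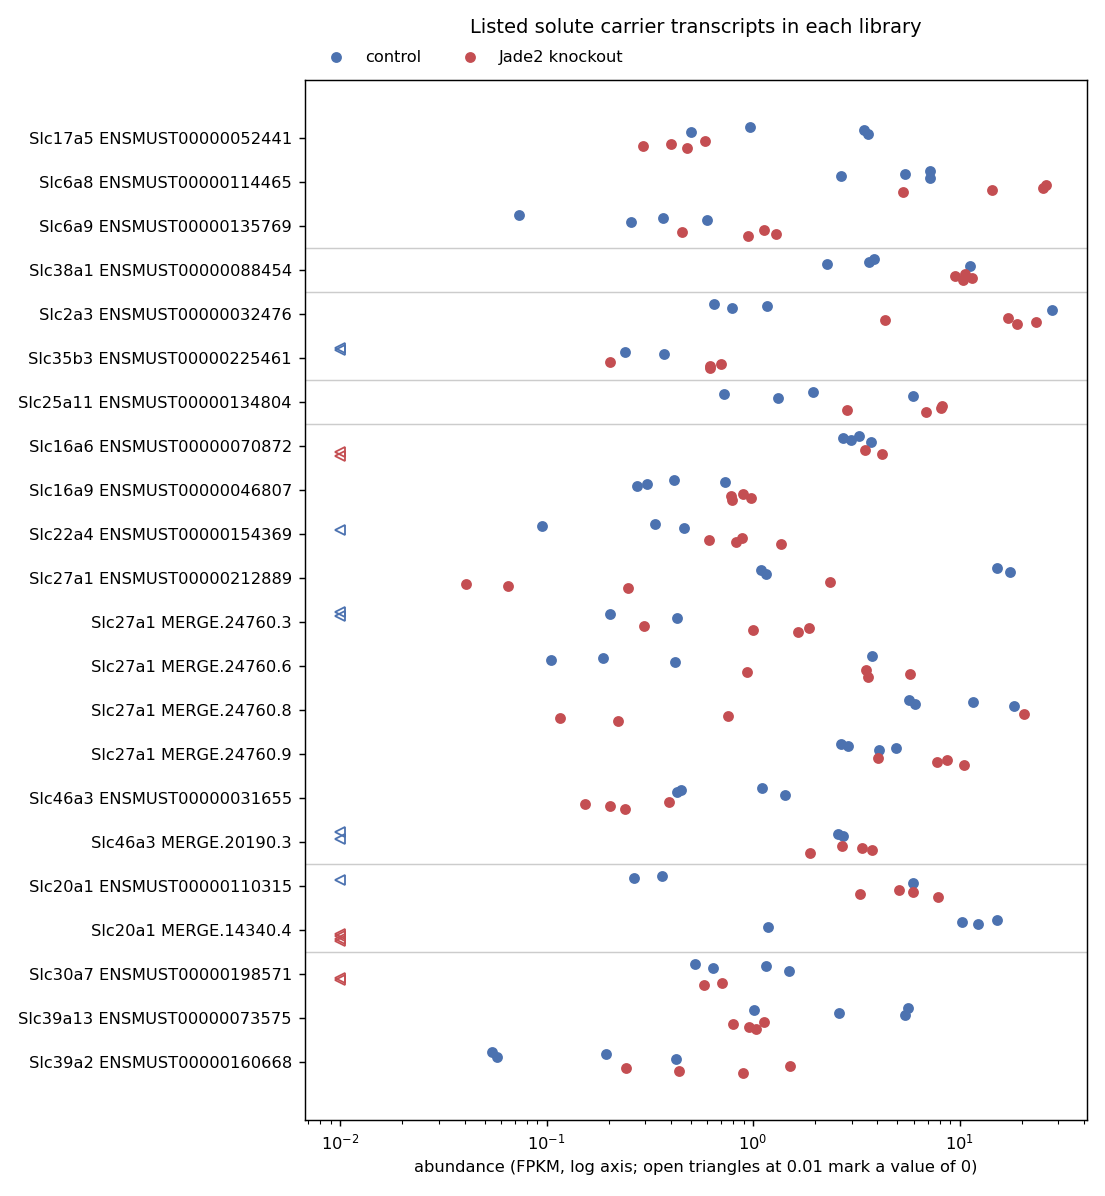
Abundance of each listed solute carrier transcript in every library, in FPKM on a log axis, grouped by kind of substrate. Blue points are the 4 controls and red points the 4 Jade2 knockouts; open triangles mark a value of 0. The colours are fully separated for 4 of the 22 transcripts.

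**Figure D2:**
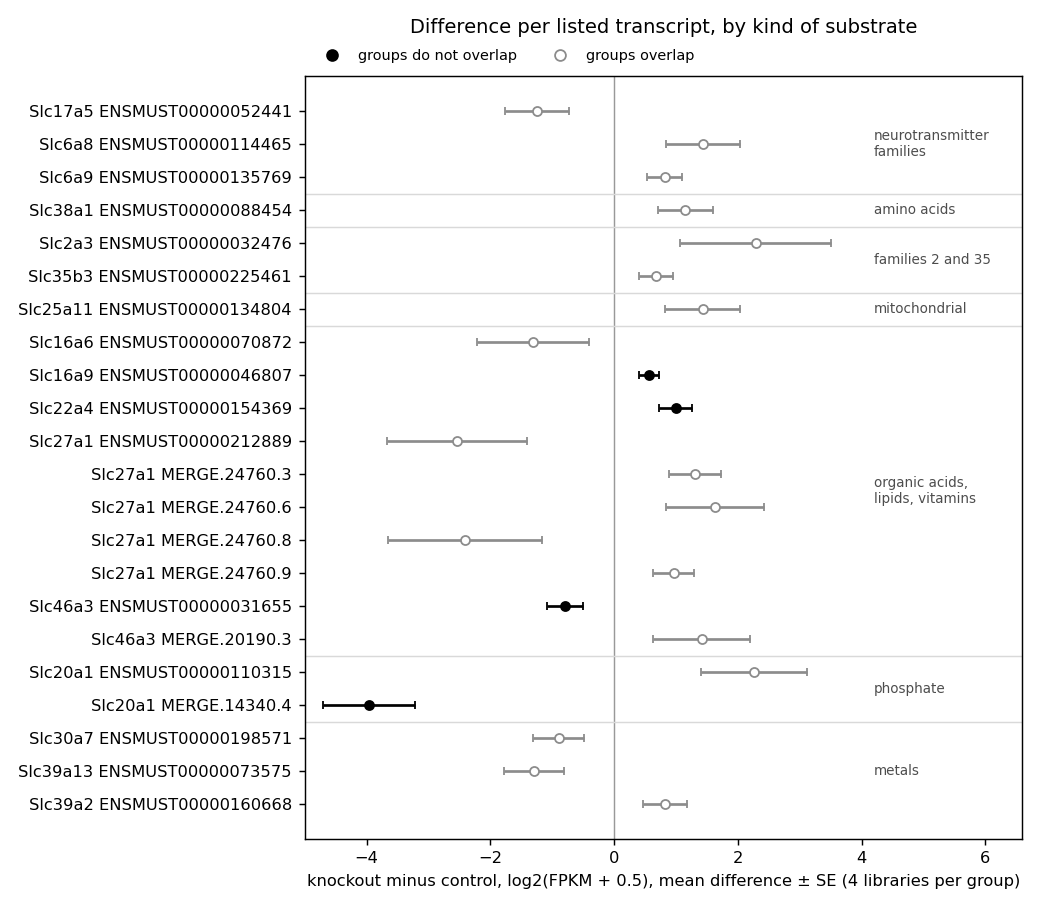
Knockout minus control difference of the mean log2(FPKM + 0.5) for each transcript, with its standard error (4 libraries per group). Filled points are the 4 transcripts whose groups did not overlap; 14 points lie to the right of 0 and 8 to the left.

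The 16 annotated members were all found in GENCODE M21 with identical coordinates on mm10. By that annotation 10 are protein coding, beside 62.3% of the 1136 listed annotated transcripts, 3 are processed transcripts, 2 retain an intron and 1 is a target of nonsense-mediated decay. Coding members were 5 higher and 5 lower, beside 340 higher of all 708 listed coding transcripts. Among the 6 that are not coding, 5 were higher and 1 lower, where 49.8% of all 428 listed non-coding transcripts were higher. Of the 10 coding members, 5 have exactly the coding exons of another annotated transcript of their gene, beside 29.1% of the 708 listed coding transcripts: those of Slc6a8, Slc20a1, Slc27a1, Slc38a1 and Slc46a3. For these genes the listed transcript and an unlisted partner have the same coding sequence and differ in untranslated exons. Exons of 6 annotated members lie over exons of another gene. Those of Slc39a2 overlap Mettl17 on the same strand. On the opposite strand, those of Slc39a13 overlap Psmc3, those of Slc20a1 overlap 9830144P21Rik, those of Slc16a6 overlap Amz2, those of Slc30a7 overlap Gm43106, and those of Slc16a9 overlap Gm7097 and Gm9877. Whether the authors' quantification used strand was not stated in the labels or notes, so reads there could have been assigned to either gene.

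**Figure D3:**
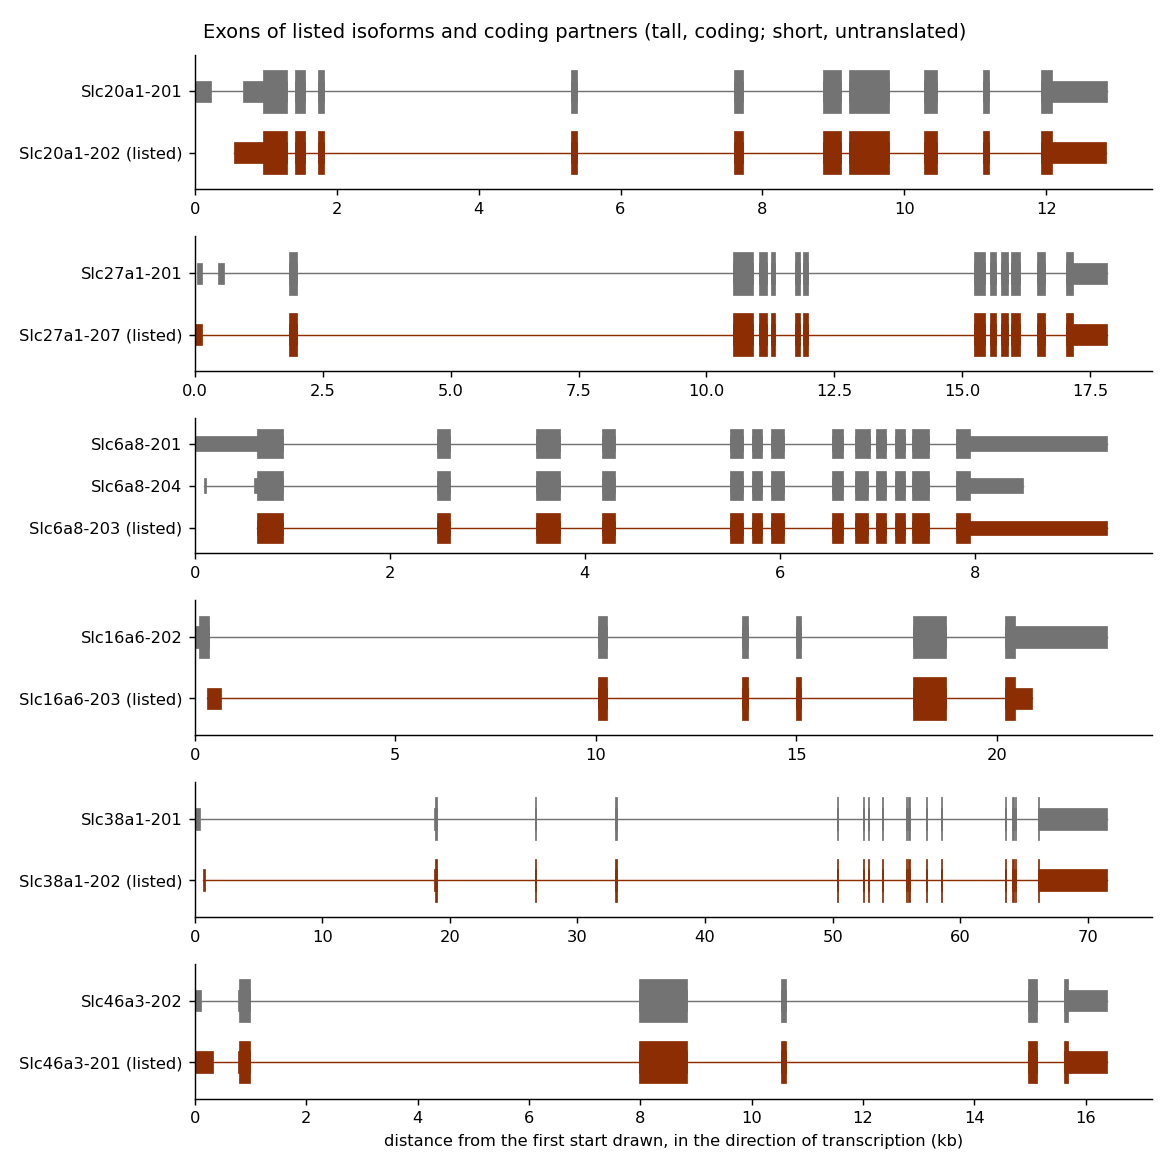
Exons of listed isoforms (brown) and annotated coding partners (grey) of 6 solute carrier genes, by distance in kb from the first start drawn. Tall blocks are coding and short blocks untranslated. Each listed isoform differs from the grey ones near its 5′ end. The coding part is also shorter than in the longest grey form for Slc16a6 (1569 against 1821 bases) and for Slc6a8 (1905 against 1920 bases).

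A splice junction that no other annotated transcript of the gene has was present in 7 of the 16. Such junctions can tell a read of the listed isoform from the other annotated transcripts of its gene. Whether a merged model of the locus also holds them is unknown, as the exons of these models are not given. Junctions of 4 genes are printed here from the GENCODE M21 transcripts (GRCm38). Each stands with the junction of a coding transcript that joins the same downstream exon. Lower case is the end of the upstream exon and capitals are the start of the downstream exon.
Slc27a1 ENSMUST00000212889, listed: aagggccagggatctGATGCGGGCTCCTGG
Slc27a1 ENSMUST00000034267, partner: caagctccagcacagGATGCGGGCTCCTGG
Slc16a6 ENSMUST00000070872, listed: ttcccttctaacttgATCAAGAATGACCCA
Slc16a6 ENSMUST00000070152, partner: gaccggctgcagccgATCAAGAATGACCCA
Slc6a9 ENSMUST00000135769, listed: agagggagccccaggAATGGTGCTGTGCCC
Slc6a9 ENSMUST00000030269, partner: gccaaagggatgttgAATGGTGCTGTGCCC
Slc35b3 ENSMUST00000225461, listed: cagtaccttcgctagGTATATATGGTCTGG
Slc35b3 ENSMUST00000167513, partner: gccgttcacttttcaGTATATATGGTCTGG
In Slc27a1 the junction joins base 71569023 of chromosome 8 to base 71570721, plus strand, just before the start codon, and both transcripts share their coding exons of 1938 bases. In Slc16a6 it joins 109472938 to 109463548 of chromosome 11, minus strand. The listed Slc16a6 isoform begins its coding part after that junction and has 1569 coding bases, against 1821 in the longest annotated form. In Slc6a9 the junction joins 117855760 to 117855875 of chromosome 4, plus strand, and the listed transcript has no annotated coding part. In Slc35b3 the listed transcript holds an additional exon, and the junction out of it joins 38933456 to 38932916 of chromosome 13, minus strand.

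Slc20a1 encodes PiT1, a sodium-dependent phosphate importer of the plasma membrane. Its merged model MERGE.14340.4 (chromosome 2, 129198803 to 129211600, plus strand) was listed at 0 in all 4 knockouts and at 15.2, 10.3, 12.3 and 1.18 FPKM in controls 1 to 4. All controls were above all knockouts, but control 4 was far below the other controls. On the log2(FPKM + 0.5) scale the difference was -3.96 (SE 0.744), with an unadjusted limma p of 8.2e-05 and an adjusted p of 0.661; its size is set largely by the pseudocount, as 1 group is at 0. An exact 0 from this kind of quantification may also be an estimate that failed, and overlapping models compete for the same reads. Without control 4 the difference was -4.69 (SE 0.130) and this model passed in limma with an adjusted p of 0.0269. The knockouts, all at 0, add no spread to that SE, and the control left out was the one far from its group. The pass is therefore not separate evidence of a difference. Over all the alternatives tried its adjusted p ranged from 0.0269 to 1.

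The annotated isoform Slc20a1 ENSMUST00000110315 (chromosome 2, 129199310 to 129211609) had the opposite pattern. It stood at 5.08, 5.93, 3.28 and 7.82 FPKM in knockouts 1 to 4 and at 0.363, 0.264, 0 and 5.97 FPKM in controls 1 to 4. Control 4 was inside the knockout range and the other 3 controls were below it (difference 2.26, SE 0.858). The ratio of the group means, knockout over control, was 3.35 with all libraries and 26.5 without control 4. Together the listed Slc20a1 transcripts summed to 5.08, 5.93, 3.28 and 7.82 FPKM in the knockouts and to 15.5, 10.5, 12.3 and 7.16 FPKM in the controls. Only the highest knockout and the lowest control overlapped in that sum (difference -0.99, SE 0.326). The merged model made up 97.7%, 97.5% and 100% of the listed sum in controls 1 to 3, 16.5% in control 4 and none of it in the knockouts.

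The Slc20a1 transcripts start at different places. The merged model starts 30 bases after the RefSeq start at base 129198773 and the annotated isoform 537 bases after it. The first annotated start of the gene lies 546 bases before that of the annotated isoform, and the transcript that begins there has the same coding exons. The models with opposite values thus differ in where they begin, but whether the start bears on the values was not tested. Of 2 RefSeq promoter windows of the gene, 1 is shown, the sequence just before the upstream start (RefSeq promoter table, GRCm38.p6, chr2:129198523-129198763, plus strand, ending before the first annotated exon).
Slc20a1 upstream start: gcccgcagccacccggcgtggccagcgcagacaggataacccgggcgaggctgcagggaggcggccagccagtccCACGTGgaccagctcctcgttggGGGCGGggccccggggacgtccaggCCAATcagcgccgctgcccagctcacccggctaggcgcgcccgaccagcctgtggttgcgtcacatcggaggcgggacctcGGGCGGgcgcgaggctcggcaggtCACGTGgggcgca
Capitals mark matches to motifs searched on both strands. The window of 241 bases is 75.5% G or C and has 28 CpG dinucleotides. It holds 2 copies of the E-box CACGTG, which 5.73% of all 32851 promoter windows of this length contain, 2 copies of the GC box GGGCGG (31.4% of windows) and 1 CCAAT box, CCAAT (33.1%). The TATA box TATAAA (12.1%) and the cyclic AMP response element TGACGTCA (1.47%) had no match. These matches describe letters, not bound sites.

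Slc27a1 encodes FATP1, which takes up long-chain fatty acids and joins them to coenzyme A. Its locus on chromosome 8 (71568882 to 71587302, plus strand) had 5 listed transcripts, 3 higher and 2 lower in the knockout, the most of any solute carrier locus. The annotated isoform ENSMUST00000212889 stood at 2.36, 0.0406, 0.0653 and 0.247 FPKM in knockouts 1 to 4 and at 15.1, 1.09, 17.6 and 1.15 FPKM in controls 1 to 4. Controls 1 and 3 were high and controls 2 and 4 were below knockout 1 (difference -2.54, SE 1.13). Its ratio of group means, control over knockout, was 12.9 with all libraries, 74.2 without knockout 1 and 8.55 without control 3.

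The merged model Slc27a1 MERGE.24760.8 was also lower in 3 knockouts. It stood at 20.4, 0.758, 0.116 and 0.221 FPKM in knockouts 1 to 4 and at 5.69, 11.7, 6.11 and 18.3 FPKM in the controls. Knockout 1 was above every control, and the control-to-knockout ratio of means was 1.94 with it and 28.6 without it (difference -2.41, SE 1.25, with all libraries). In the other direction, Slc27a1 MERGE.24760.9 stood at 4.04, 8.73, 7.81 and 10.5 FPKM in the knockouts and at 2.68, 2.87, 4.92 and 4.07 FPKM in the controls. Here again knockout 1 lay within the control range while the other 3 knockouts lay above it (difference 0.96, SE 0.333). Slc27a1 MERGE.24760.6 stood at 3.51, 0.934, 5.74 and 3.60 FPKM in the knockouts and at 3.76, 0.187, 0.104 and 0.417 FPKM in the controls, with control 1 inside the knockout range. Without control 1 the ratio of means of this model was 14.6, against 3.09 with it (difference 1.63, SE 0.792, with all libraries). Slc27a1 MERGE.24760.3 stood at 0.297, 1.87, 0.999 and 1.65 FPKM in the knockouts and at 0, 0.202, 0 and 0.426 FPKM in the controls, with knockout 1 again within the control range (difference 1.31, SE 0.416). Its ratio of means was 7.68, and 17.9 without control 4. MERGE.24760.8 and MERGE.24760.9 have the same first and last base, so they differ only in internal structure, which the table does not give.

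Summed over its 5 listed transcripts the Slc27a1 locus came to 30.6, 12.3, 14.7 and 16.3 FPKM in knockouts 1 to 4 and to 27.2, 16.02, 28.7 and 24.4 FPKM in controls 1 to 4. The groups overlapped and the difference was -0.43 (SE 0.335). Without knockout 1 it was -0.69 (SE 0.240), and without knockout 2 it was -0.27 (SE 0.349). The share held by MERGE.24760.9 was 70.8%, 53.0% and 64.8% in knockouts 2 to 4, 13.2% in knockout 1 and 9.82% to 17.9% in the controls. MERGE.24760.8 held 66.7% in knockout 1, 0.789% to 6.14% in the other knockouts and 20.9% to 75.1% in the controls. In both shares knockout 1 lay within the range of the controls.

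Slc46a3 encodes a lysosomal member of the family that holds the proton-coupled folate transporter. The annotated isoform ENSMUST00000031655 (chromosome 5, 147878441 to 147894815, minus strand) stood at 0.393, 0.154, 0.203 and 0.239 FPKM in knockouts 1 to 4 and at 1.11, 0.449, 0.430 and 1.42 FPKM in the controls. All controls were above all knockouts, though knockout 1 and control 3 were close (difference -0.79, SE 0.283). The merged model Slc46a3 MERGE.20190.3 stood at 2.70, 3.37, 3.77 and 1.88 FPKM in the knockouts and at 0, 2.58, 2.73 and 0 FPKM in the controls. Its knockout-to-control ratio of means was 2.21, and 3.40 without control 3 (difference 1.41, SE 0.790, with all libraries). That ratio was 1.65 without control 1 and also 1.65 without control 4. The controls at 0 were controls 1 and 4, the same libraries in which the annotated isoform was highest. The sum over both was 3.09, 3.53, 3.97 and 2.11 FPKM in the knockouts and 1.11, 3.03, 3.16 and 1.42 FPKM in the controls, with overlap (difference 0.52, SE 0.346). Without control 1 that difference was 0.30.

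**Figure D4:**
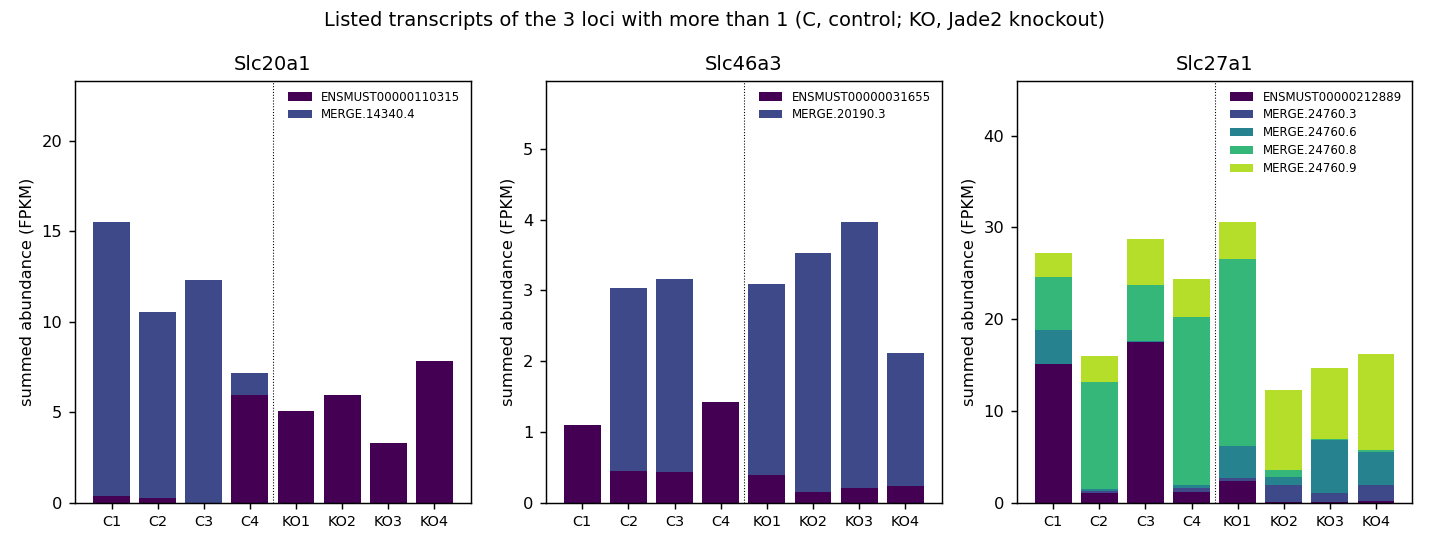
Summed FPKM of the listed transcripts of Slc20a1, Slc46a3 and Slc27a1 in each control (C) and knockout (KO) library, with 1 colour per transcript. Bars of both groups overlap in height at each locus. The largest segment of control 4 in Slc20a1 is the annotated isoform, as in the knockouts, and that of knockout 1 in Slc27a1 is MERGE.24760.8, as in controls 2 and 4.

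More than 1 listed transcript was present at 3 of 16 solute carrier loci, beside 15.2% of all listed loci. All 3 held both directions, as did 64.5% of the 214 such loci in the table. Among the 13 loci with a single listed transcript 9 were higher and 4 lower. On locus sums 10 of the 16 loci had a mean of at least 1 FPKM, and none passed limma after adjustment, beside 0.00% of 751 locus sums. Of these 10, 6 had an unadjusted limma p under 0.05, beside 62.8% of the 751. Unlisted transcripts of the same genes are not included, so a locus sum is not the level of a gene.

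Families 6 and 17 include the carriers of neurotransmitters, and 3 members belonged to them, 2 higher and 1 lower. Slc6a8, the X-linked creatine transporter that supplies the phosphocreatine energy buffer, had the highest knockout mean of the members, 17.8 ± 9.87 FPKM (SD, n = 4). Its coding isoform ENSMUST00000114465 (chromosome X, 73673785 to 73682502, plus strand) stood at 26.2, 25.2, 14.4 and 5.32 FPKM in knockouts 1 to 4 and at 7.18, 5.43, 2.67 and 7.22 FPKM in the controls. Knockouts 1 to 3 were above every control and knockout 4 was within the control range (difference 1.43, SE 0.595). This isoform starts 635 bases after the first annotated start of the gene.

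Slc6a9 encodes GlyT1, the glycine transporter that keeps extracellular glycine low around NMDA receptors. The listed transcript ENSMUST00000135769 (chromosome 4, 117855544 to 117856027, plus strand) is a short processed transcript of 370 bases in 2 exons. It stood at 1.12, 0.450, 1.30 and 0.949 FPKM in the knockouts and at 0.0735, 0.365, 0.601 and 0.256 FPKM in the controls, with knockout 2 below control 3 (difference 0.82, SE 0.282). GENCODE M21 gives the gene 12 transcripts, 8 of them coding, and none of the coding ones is listed.

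Slc17a5 encodes sialin, which exports sialic acid from lysosomes. Its full coding isoform ENSMUST00000052441 (chromosome 9, 78536488 to 78588041, minus strand) stood at 0.582, 0.399, 0.292 and 0.480 FPKM in the knockouts and at 0.971, 3.45, 0.501 and 3.60 FPKM in the controls. Controls 2 and 4 were high, and control 3 was within the knockout range (difference -1.24, SE 0.521).

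Of the amino acid carriers a single transcript was listed. Slc38a1, or SNAT1, is a sodium-coupled importer of glutamine, the precursor of transmitter glutamate and GABA. Its isoform ENSMUST00000088454 (chromosome 15, 96571418 to 96642250, minus strand) stood at 10.6, 9.48, 11.5 and 10.4 FPKM in knockouts 1 to 4, a narrow range. In controls 1 to 4 it stood at 3.87, 3.63, 2.27 and 11.3 FPKM. Control 4 was within the knockout range and the others were well below it. The difference was 1.15 (SE 0.448), and 1.57 (SE 0.185) without control 4. The ratio of means was 1.99, 3.22 without control 4 and 1.67 without control 3. The isoform starts 663 bases after the first annotated start and shares its coding exons with other annotated transcripts.

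The facilitative sugar carriers (Slc2) and the carriers of nucleotide-linked donors into the Golgi (Slc35) had 1 listed transcript each, both higher in the knockout mean. Slc2a3 encodes GLUT3, the main glucose transporter of neurons. Its full coding isoform ENSMUST00000032476 (chromosome 6, 122727809 to 122742745, minus strand) stood at 17.2, 4.34, 23.4 and 18.96 FPKM in knockouts 1 to 4 and at 0.649, 1.17, 0.789 and 27.99 FPKM in the controls. Control 4 was the highest of all 8 libraries, while the other 3 controls were below every knockout. The ratio of means, knockout over control, was 2.09 with all libraries and 18.4 without control 4 (difference 2.29, SE 1.22, and 3.39, SE 0.633, without it). Leaving out control 1, 2 or 3 gave a ratio of 1.6, 1.63 or 1.61. Slc35b3 encodes a Golgi carrier of the sulfate donor PAPS, and its listed transcript is the decay target whose junction is printed above. It stood at 0.204, 0.701, 0.621 and 0.619 FPKM in the knockouts and at 0, 0, 0.238 and 0.371 FPKM in the controls, with knockout 1 within the control range (difference 0.68, SE 0.269). Its ratio of means was 3.52, and 6.75 without control 4.

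Slc25a11 encodes the oxoglutarate carrier of the inner mitochondrial membrane, a part of the malate-aspartate shuttle. The listed transcript ENSMUST00000134804 (chromosome 11, 70644695 to 70645910, minus strand) retains an intron. It stood at 8.19, 8.14, 2.84 and 6.91 FPKM in the knockouts and at 1.95, 0.720, 5.92 and 1.31 FPKM in the controls. Knockout 3 was below control 3, and the other libraries were separated (difference 1.44, SE 0.608). Without control 3 the ratio of means was 4.91, against 2.63 with it.

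Among the remaining carriers of organic acids and organic ions, Slc16a6 encodes MCT7, a monocarboxylate carrier known for the export of ketone bodies. Its isoform ENSMUST00000070872 (chromosome 11, 109452726 to 109473294, minus strand) stood at 3.47, 0, 4.23 and 0 FPKM in knockouts 1 to 4 and at 3.27, 2.73, 2.99 and 3.73 FPKM in the controls. Knockout 1 was within the control range, knockout 3 above it, and knockouts 2 and 4 were at 0, so the lower group mean rests on 2 libraries (difference -1.32, SE 0.904). Leaving out knockout 2 alone or knockout 4 alone gave a difference of -0.80, with the other value of 0 still included. The control-to-knockout ratio of means was 1.65, and 2.75 without knockout 3. Slc16a9, or MCT9, has 1 annotated coding transcript, ENSMUST00000046807 (chromosome 10, 70245100 to 70285968, plus strand), and it is the listed one. It stood at 0.897, 0.779, 0.975 and 0.791 FPKM in the knockouts and at 0.413, 0.733, 0.306 and 0.273 FPKM in the controls, with control 2 just below the lowest knockout (difference 0.57, SE 0.160).

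Slc22a4 encodes OCTN1, a carrier of ergothioneine. Its listed processed transcript ENSMUST00000154369 (chromosome 11, 54014260 to 54027952, minus strand) stood at 0.882, 0.613, 0.824 and 1.36 FPKM in the knockouts and at 0.336, 0.0953, 0.462 and 0 FPKM in the controls. The groups did not overlap (difference 1.00, SE 0.266). Its ratio of means was 4.12, and 6.39 without control 3.

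Zinc carriers gave 3 listed transcripts, 1 higher and 2 lower. Slc39a13, or ZIP13, releases zinc from intracellular vesicles, and its coding isoform ENSMUST00000073575 (chromosome 2, 91061791 to 91070417, minus strand) stood at 1.13, 0.803, 0.955 and 1.03 FPKM in the knockouts. In controls 1 to 4 it stood at 5.63, 1.01, 2.62 and 5.41 FPKM. Control 2 was within the knockout range and the other 3 were above it (difference -1.29, SE 0.481). Slc30a7, or ZnT7, loads zinc into the Golgi. Its short processed transcript ENSMUST00000198571, at the 3′ end of the gene, stood at 0, 0, 0.703 and 0.581 FPKM in the knockouts and at 0.523, 1.16, 0.641 and 1.498 FPKM in the controls. Knockouts 1 and 2 were at 0 and the other knockouts were within the control range (difference -0.89, SE 0.413). Its control-to-knockout ratio of means was 2.98, and 4.94 without knockout 3. Slc39a2, or ZIP2, is a zinc importer of the plasma membrane, and its intron-retaining transcript ENSMUST00000160668 stood at 1.51, 0.243, 0.437 and 0.894 FPKM in the knockouts and at 0.0542, 0.194, 0.0573 and 0.421 FPKM in the controls. Control 4 was above knockout 2 (difference 0.83, SE 0.361), and the ratio of means was 4.25, or 7.58 without control 4. Reads of Mettl17 could contribute to the Slc39a2 values.

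The number of members with separated groups rose by differing amounts when single libraries were left out, which can only keep or raise it. Leaving out control 4 raised the number of members with separated groups from 4 to 9, adding Slc2a3, Slc38a1, Slc39a2, Slc20a1 ENSMUST00000110315 and Slc27a1 MERGE.24760.3. Leaving out knockout 1 raised it to 10, adding Slc17a5, Slc35b3 and 4 transcripts of Slc27a1, which share a locus and compete for reads. Leaving out control 3 raised it to 7, adding Slc17a5, Slc25a11 and Slc6a9. It was 6 without knockout 2 and 5 without any 1 of knockouts 3 and 4 and controls 1 and 2. Over all 1679 listed transcripts the number with separated groups was 606 with all libraries. It was 795, 786, 755 and 768 without knockouts 1 to 4 in turn, and 764, 791, 748 and 791 without controls 1 to 4. With all libraries and at each of these settings the share was lower among the members than over the whole list. The rises are therefore not read as a trait of the members.

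**Figure D5:**
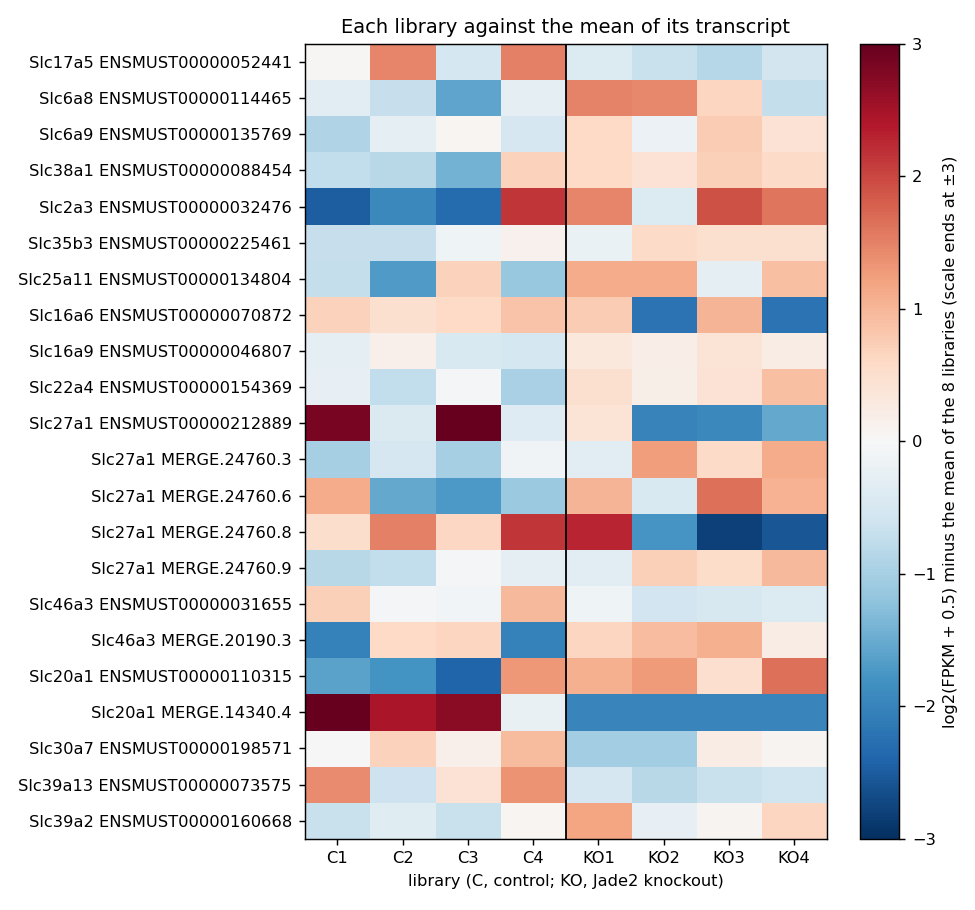
Level of each listed solute carrier transcript in each library (C, control; KO, Jade2 knockout), as log2(FPKM + 0.5) minus the mean of the 8 libraries. Control 4 has the colour of the knockouts for Slc38a1, Slc2a3 and Slc20a1 ENSMUST00000110315, and knockout 1 that of the controls for Slc27a1 MERGE.24760.8.

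Of 122 genes of the sodium-potassium pump, calcium pumps, vacuolar proton pump, ABC transporters, Slco organic anion transporters and aquaporins, 1 had a listed transcript, a share of 0.82%. The share was 4.43% for the 361 solute carrier genes and 1.82% for all 55341 genes of GENCODE M21. Genes were matched by symbol and not limited to those expressed in brain or coding for protein. A gene with more transcripts has more chances of a listed one, and the solute carrier genes hold 1898 of 141767 annotated transcripts. The shares are therefore not a like comparison. The 1 transcript, lower in the knockout mean, was Abcc3 ENSMUST00000178136, of an ABC exporter of conjugated organic anions, at 0.125, 0.479, 0.156 and 0.435 FPKM in the knockouts and at 0.663, 0.458, 0.522 and 0.551 FPKM in the controls. Knockout 2 was above control 2. Of 48 cell type markers, among them the transporters Slc17a7, Slc32a1, Slc1a2, Slc1a3 and Slc2a1, 6 genes had a listed transcript, with 4 transcripts higher and 4 lower. The microglial Csf1r stood at 1.57, 0.0573, 0.0992 and 0.0140 FPKM in knockouts 1 to 4. In controls 1 to 4 Csf1r stood at 21.3, 2.53, 1.64 and 1.19 FPKM. The endothelial Ly6c1 stood at 6.85, 3.18, 10.5 and 6.77 FPKM in knockouts 1 to 4. In controls 1 to 4 Ly6c1 stood at 0.714, 0.0483, 0.296 and 6.87 FPKM. The oligodendrocyte gene Mag was lower and the meningeal Col1a2 and thalamic Prkcd were higher in the mean, while the neocortical Lamp5 had 1 transcript higher and 2 lower. None of the markers chosen here for excitatory neurons, interneurons, astrocytes or choroid plexus was listed, so the labelled tissue was not checked against its defining markers. The part of these cell types in the solute carrier values was not tested.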

How the data were processed

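The submitters' processing notes name HISAT2, Cuffdiff and the mm10 build, without versions; annotation and strand setting were not stated there. The authors deposited abundances with no unit named, taken here as FPKM, and a log2 fold change, p-value and adjusted p per transcript, which stand in the authors' deposited table. The number of transcripts tested was computed from the ratio of adjusted to unadjusted p. Groups and replicate numbers came from the labels. FPKM plus a pseudocount of 0.5 was log2 transformed, since these values are not counts. Transcripts, and sums per locus, whose mean reached 1 FPKM were tested with limma 3.58.1 (R 4.3.3, variance trend, two-sided), fitted on the whole table, with Benjamini-Hochberg adjustment over 104721. Fold changes on this scale understate those of low transcripts. The fit was tested on simulated data. Other work used Python 3.11.15, numpy 2.4.6, pandas 2.3.3 and matplotlib 3.10.9.

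Members, lists, substrate classes by family number and tests were chosen with earlier results of these data known. Values in every library were required by rule for loci with several listed transcripts, for transcripts at 0 in a whole group and for up to 4 of the most abundant in each class; Slc16a9 and Slc22a4, outside the rule, were added after their values were seen. Junctions came from GENCODE M21 transcripts. RefSeq promoter windows matched 12 of 16 genes. Alternatives were pseudocounts of 0.1 and 1, no abundance filter, a minimum mean of 5 FPKM, library median scaling, no variance trend, a replicate block and each library left out.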

Additional observations from a re-analysis of the deposited data

Results flagged for a closer look

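In 6 of 43 groups of 4 values (22 transcripts in controls and in knockouts, leaving out 1 group at 0 throughout) a single library stood away from its 3 fellows, its gap to the nearest exceeding Dixon's critical share of the range. About 1 group in 20 would do so by chance if values were normal and groups independent. Selected FPKM values bounded at 0 need not be normal, and transcripts of the same locus compete for reads. The 6 of 43 therefore cannot be set against that share. None of 5 further groups, the locus sums that repeat no transcript's values, did so. Control 4 was high for Slc2a3 ENSMUST00000032476 (27.99 FPKM, gap 0.981 of the range) and for Slc20a1 ENSMUST00000110315 (5.97 FPKM, gap 0.939). Knockout 1 was high for Slc27a1 MERGE.24760.8 (20.4 FPKM, gap 0.968) and for Slc27a1 ENSMUST00000212889 (2.36 FPKM, gap 0.911), and low for Slc35b3 ENSMUST00000225461 (0.204 FPKM, gap 0.836). Control 1 was high for Slc27a1 MERGE.24760.6 (3.76 FPKM, gap 0.915).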

How the results depend on the processing

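No solute carrier transcript and no locus sum changed direction in 300 recomputations of 25 differences. With the replicate block the differences could not change in this balanced design. Listing of a transcript also required a log2 fold change of at least 1.00 in size on these same values. The count is therefore little evidence of stability. The number of solute carrier transcripts past an adjusted limma p of 0.05 was 0 throughout except when 1 library was left out, where it ranged from 0 to 1, the 1 being Slc20a1 MERGE.14340.4 without control replicate 4. The knockout values of that model, all at 0, add no spread to its test. No locus sum of a solute carrier passed under any alternative. Over the whole list limma called 0 transcripts, 7 with no abundance filter, and 0 to 4 with 1 library left out. The number of members with separated groups was 4, and 5 to 10 with 1 library left out, which can only keep or raise it. The number of tested members with an unadjusted limma p under 0.05 was 10 of 14, beside 70.6% of the 849 tested listed transcripts. It was 12 of 14 with a pseudocount of 0.1 or no variance trend, and 10 of 14 with a pseudocount of 1. It was 9 of 14 with library median scaling or the replicate block, and 4 of 5 at a minimum mean of 5 FPKM. With 1 library left out, where fewer samples enter, it ranged from 4 (without knockout 2) to 8 (without knockout 1). The share of the whole list at these other settings was not computed, so the shifts cannot be called particular to solute carriers. With a pseudocount of 0.1 the differences of 12 of 22 transcripts grew by more than their standard error, that of Slc20a1 MERGE.14340.4 from -3.96 to -6.15, without a change of direction. Same-numbered libraries did not deviate together (correlations from -0.033 to 0.041), so no pairing by number was seen in these selected values. This cannot show that the samples were unpaired, and the labels do not say. With the replicate block 0 solute carrier transcripts and 0 listed transcripts passed. Ratios of means that moved by over 1.5 times without 1 library stand beside the members. All of these grew except that of Slc27a1 ENSMUST00000212889 without control 3, and most smaller moves, among them reductions, are not printed. Values near 0 and 4 libraries per group limit precision, and without counts the depth behind low values is unknown.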
